A study of Homo sapiens with 8 samples.

Results

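The genes described here are LOXHD1 and 9 other genes whose proteins build or move the stereocilia of hair cells (CDH23, PCDH15, TMC1, TMIE, MYO7A, USH1C, WHRN, ESPN and MYO6), followed through RNA-seq of Ewing sarcoma cells with and without silencing of the LOXHD1 enhancer. They were found by gene symbol in the deposited expression table, where each of the 10 symbols had 1 row among 60332 rows. The cells were RD-ES and SK-N-MC, both of them Ewing sarcoma cell lines, and each line had 2 control and 2 eKD2 libraries (8 libraries in 4 groups). Controls are labelled as infected with an empty dCas9-KRAB lentivirus, although the study's text calls them parental. In eKD2 a guide brought dCas9-KRAB, which is a Cas9 without cutting activity joined to a repressor domain, to the GGAA repeat of LOXHD1. Infection was at a multiplicity of infection of 10, followed by puromycin at 1 µg/ml for 3 days and use within 5 passages, so each library is of a pool of infected cells and not of a clone. Values are FPKM, a number of reads per transcript length and library size, and levels of different genes are compared only on this per-length scale.

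Hair cells of the inner ear carry bundles of stereocilia, actin-filled protrusions joined by fine extracellular links. When sound or motion bends the bundle, the tip link, made of cadherin 23 (CDH23) and protocadherin 15 (PCDH15), pulls on a transduction channel that holds TMC1 and TMIE, while harmonin (USH1C) and the motor myosin VIIa (MYO7A) anchor the upper end of the link. Whirlin (WHRN) is a scaffold of the ankle links and the stereocilium tip, espin (ESPN) bundles actin, and myosin VI (MYO6) acts at the stereocilium base. LOXHD1 consists of repeated PLAT domains, which bind lipids or proteins, and is needed for hearing. Loss of any of these genes is a known cause of inherited deafness. Several of them also work in other cells, for example MYO6 in endocytosis.

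The silenced enhancer is a run of GGAA inside an intron of the annotated LOXHD1 gene. The study reports that Ewing sarcoma cells transcribe a short LOXHD1 isoform from an alternative start, and it places the repeat upstream of that start. The nearest annotated transcript start of LOXHD1 was 6.37 kb from the repeat. GGAA repeats are bound by the Ewing sarcoma fusion protein EWSR1::FLI1. Runs of at least 9 GGAA units, read on either strand as GGAA or TTCC, were also searched within 100 kb of the outermost start of each member. They were found at 5 of the 10 members, namely USH1C, CDH23, TMC1, WHRN and LOXHD1, whose repeat was known beforehand. At LOXHD1 the window also held a run of 15 units, 67.8 kb from the start and outside the gene. Of 15009 genes averaging at least 1 FPKM with an annotated start, 21.3% had such a run. Only 4 of the 10 members average that much, so the shares rest on unlike sets. At PCDH15 the longest run in this window had 6 units, while a run of 9 units lies farther inside the gene, and at MYO7A, ESPN, MYO6 and TMIE no run of at least 4 units was in the window. The runs of CDH23 (13 units, 6.54 kb from the start and inside the gene), WHRN (9 units, 30.8 kb) and TMC1 (12 units, 87.6 kb) are shown because these members averaged at least 1 FPKM in a control group, with the run in capitals on the plus strand of GRCh37. They cover chr10:73163192-73163283, chr9:117298554-117298629 and chr9:75224078-75224165. A run of these letters is a description of the reference sequence, and binding at it was not measured here.
CDH23 repeat: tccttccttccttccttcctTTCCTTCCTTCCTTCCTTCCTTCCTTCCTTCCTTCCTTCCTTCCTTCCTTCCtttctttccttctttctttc
WHRN repeat: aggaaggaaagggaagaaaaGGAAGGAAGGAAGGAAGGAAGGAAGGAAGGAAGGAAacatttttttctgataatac
TMC1 repeat: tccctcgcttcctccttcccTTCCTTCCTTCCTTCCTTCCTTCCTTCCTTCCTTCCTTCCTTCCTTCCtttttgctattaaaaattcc

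Depth is not recorded beside the FPKM, and 6.99 to 28.0 M reads (M, mega) per library were estimated from the FPKM steps of genes listed at 1 read. All 10 Ewing sarcoma markers examined were detected in both lines. RD-ES eKD2 replicate 1 was the shallowest library and stood apart. It was the highest of the 4 RD-ES libraries in 33.2% of 21117 rows, against 18.9% to 25.7% for each of the others. CDH1, an epithelial adhesion protein, was at 3.50 FPKM there against at most 0.160 FPKM in the other RD-ES libraries, and KLK3, a protease of the prostate, at 11.7 against at most 0.10 FPKM. Of 12 epithelial markers 7 were highest of the RD-ES libraries in this one (summed level 62.0 FPKM against 44.8 to 49.0). Of 12 prostate epithelial markers it was also 7 (55.2 FPKM against 31.6 to 34.5). Both sums were higher in every SK-N-MC library (88.8 to 114 FPKM and 64.6 to 75.1 FPKM). CLDN3, an epithelial junction protein, was listed at 0 in every library, and SPDEF, a prostate transcription factor, at 0 in every RD-ES library. These genes and both lists were chosen after the values were seen. Changes in RD-ES that had their highest value in this library are given with and without it. The part of its epithelial signal in them was not tested.

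In control cells LOXHD1 was the highest of the 10 genes in both lines. Its partners WHRN, MYO6 and CDH23 were detected (at least 1 FPKM in both libraries) in each line, and TMC1 in SK-N-MC only. Thus 4 of the 10 genes were detected in RD-ES control and 5 in SK-N-MC control, against 59.0% of protein-coding rows in each. In RD-ES control the LOXHD1 level was 21.3 ± 0.171 FPKM (SD, n = 2), followed by WHRN at 7.83 ± 0.435 FPKM, MYO6 at 7.08 ± 0.155 FPKM and CDH23 at 3.72 ± 0.0864 FPKM. In SK-N-MC control its level was 164 ± 7.12 FPKM, followed by WHRN at 24.3 ± 2.17 FPKM, CDH23 at 13.6 ± 0.810 FPKM and MYO6 at 10.1 ± 1.27 FPKM. No pair of neighbours among these 4 genes overlapped between libraries in either line. By mean level LOXHD1 ranked 5650 of 60332 rows in RD-ES control and 728 in SK-N-MC control. The LOXHD1 level was 2.72 times that of WHRN in RD-ES and 6.74 times in SK-N-MC.

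The other 6 genes averaged at most 1.43 FPKM in either control group. TMC1, the pore protein of the transduction channel, averaged 0.659 ± 0.00898 FPKM in RD-ES control and 1.43 ± 0.0508 FPKM in SK-N-MC control. Its channel partner TMIE was at 0.272 ± 0.0166 and 0.118 ± 0.0352 FPKM, values that correspond to 2.02 to 7.06 reads per library at the estimated depth. PCDH15, the lower part of the tip link, was listed at 0 in both RD-ES control libraries and at 0.136 and 0.310 FPKM in SK-N-MC control. Of the tip link pair, CDH23 was detected in both lines and PCDH15 was at 0 in RD-ES control and low in SK-N-MC control.
USH1C was at 1.38 and 0.483 FPKM in RD-ES control and listed at 0 in all 4 SK-N-MC libraries. MYO7A was at 0.367 and 0.337 FPKM in RD-ES control and at 0.0132 and 0.0104 FPKM in SK-N-MC control, which is at most 2.77 reads. ESPN was at 0.559 and 0.363 FPKM in RD-ES control and listed at 0 in all SK-N-MC libraries. In the order of RD-ES levels the libraries of USH1C overlapped those of TMC1 and ESPN, and those of ESPN overlapped those of MYO7A. In SK-N-MC control PCDH15 and TMIE were next to each other (0.136 against 0.143 FPKM at their nearest) and overlapped.

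**Figure D1:**
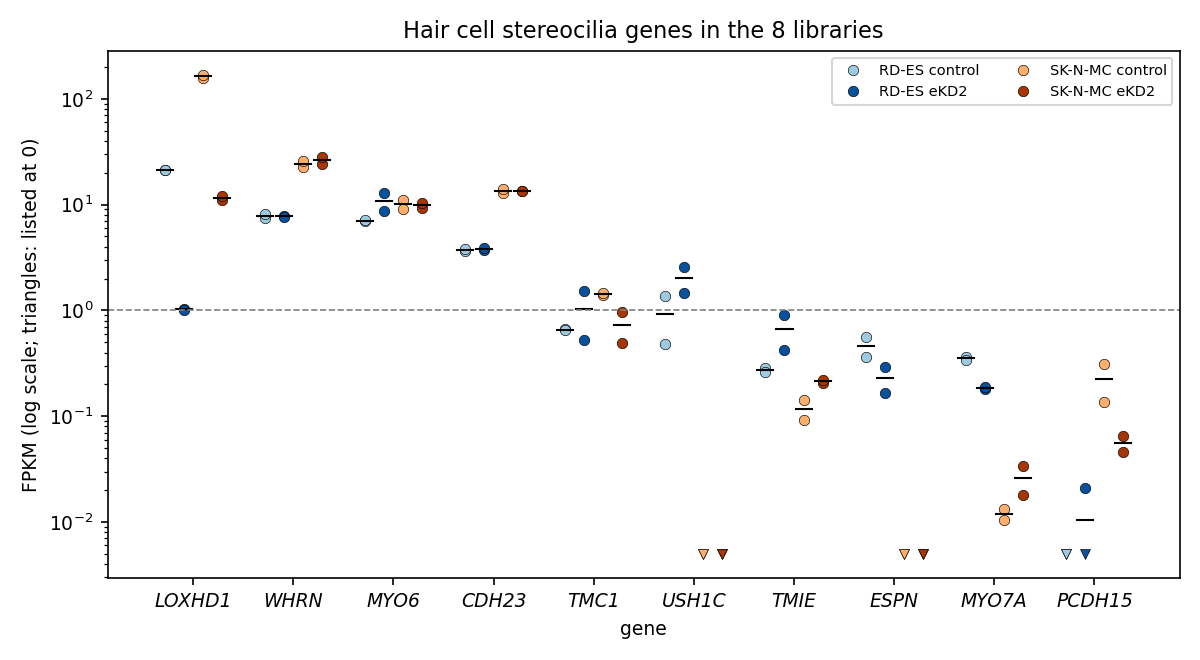
FPKM (log scale) of the 10 genes in each of the 8 libraries, ordered by mean level. Points are libraries coloured by group, short lines are group means, triangles mark values listed at 0, and the dashed line is 1 FPKM. LOXHD1 lies above all others in both control groups and within or below the WHRN, MYO6 and CDH23 range in both eKD2 groups.

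The levels between the lines were compared in the control libraries with limma on log2(FPKM + 1). Of the 4 members that averaged at least 1 FPKM across all libraries (LOXHD1, CDH23, WHRN and MYO6, of 15175 rows tested), 3 were higher in SK-N-MC at an adjusted p under 0.05, and 57.8% of all rows tested differed at that threshold. The log2 difference was 2.89 for LOXHD1 (SE 0.0782, limma adjusted p = 5.7e-06), 1.63 for CDH23 (SE 0.0876, limma adjusted p = 4.3e-05) and 1.52 for WHRN (SE 0.110, limma adjusted p = 1.2e-04). For MYO6 it was 0.45 (95% interval -0.0033 to 0.90, limma adjusted p = 0.081), and it passed the threshold without either RD-ES eKD2 library (limma adjusted p = 0.027 both times), since these libraries enter the shared estimate of spread.
The other 6 genes entered only a fit with no filter on low values (31445 rows, of which 30.8% differed between the lines). MYO7A and ESPN were lower in SK-N-MC, by -0.42 (SE 0.0320, limma adjusted p = 6.0e-04) and -0.54 (SE 0.0807, limma adjusted p = 0.0054) on the log2(FPKM + 1) scale, and PCDH15 was higher by 0.29 (SE 0.0679, limma adjusted p = 0.027). This scale understates differences of low genes. By mean level in RD-ES and SK-N-MC control, MYO7A was at 0.352 and 0.0118 FPKM, ESPN at 0.461 and 0, and PCDH15 at 0 and 0.223. The PCDH15 call was lost without any 1 of the 4 RD-ES libraries or the 2 SK-N-MC eKD2 libraries (limma adjusted p of 0.058 to 0.11). For USH1C the difference was -0.91 (95% interval -1.60 to -0.22, limma adjusted p = 0.059), and it passed with a pseudocount of 0.1 (limma adjusted p = 0.0079), a pseudocount of 0.5 (0.034) or without RD-ES control replicate 2 (0.035). For TMC1 it was 0.55 (95% interval -0.14 to 1.25, limma adjusted p = 0.22) and for TMIE -0.19 (95% interval -0.53 to 0.16, limma adjusted p = 0.39). The TMIE difference passed without RD-ES eKD2 replicate 1 or 2 (limma adjusted p = 0.024 and 0.029).

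The next comparison asked which of the partners moved when LOXHD1 was silenced. LOXHD1, the targeted gene, was at 21.4 and 21.2 FPKM in RD-ES control against 1.04 and 1.02 in eKD2, and at 159 and 169 FPKM in SK-N-MC control against 11.0 and 12.0 in eKD2, so it fell in both lines (limma adjusted p = 1.1e-04 for RD-ES and 3.7e-05 for SK-N-MC). With RD-ES fitted alone its adjusted p was 0.059 (limma). In bulk RNA, fewer cells with LOXHD1 and less LOXHD1 RNA per cell cannot be told apart. The level left in SK-N-MC eKD2 was 11.2 times that in RD-ES eKD2.
Against its partners LOXHD1 lost the first place. In RD-ES eKD2 WHRN was at 7.53 times, MYO6 at 10.6 times and CDH23 at 3.72 times the LOXHD1 level, whereas TMC1 stood at the same mean level (1.03 FPKM each, with libraries of TMC1 on both sides). In SK-N-MC eKD2 WHRN was at 2.28 times and CDH23 at 1.17 times the LOXHD1 level, and LOXHD1 remained 1.17 times as high as MYO6.

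Among the members averaging at least 1 FPKM, LOXHD1 was the 1 of 4 that changed at an adjusted p under 0.05 in either line. At this threshold the share of all rows tested was 0.343% for RD-ES and 0.323% for SK-N-MC. CDH23 was at 3.66 and 3.78 FPKM in RD-ES control and at 3.71 and 3.92 in eKD2, and at 13.0 and 14.2 FPKM in SK-N-MC control and at 13.3 and 13.4 in eKD2. The groups overlapped in both lines. The log2 fold change of CDH23 was 0.03 for RD-ES (95% interval -0.19 to 0.24) and -0.02 for SK-N-MC (95% interval -0.23 to 0.19), and the sign turned with the scaling of the libraries in RD-ES (-0.03 after median scaling and -0.06 after quantile normalization).
WHRN was at 7.52 and 8.14 FPKM in RD-ES control and at 7.77 and 7.70 in eKD2, and at 22.8 and 25.9 FPKM in SK-N-MC control and at 24.1 and 28.3 in eKD2. Again the groups overlapped. The log2 fold change was -0.02 (95% interval -0.28 to 0.25) and 0.10 (95% interval -0.17 to 0.37). These intervals bound any change of CDH23 and WHRN well below that of LOXHD1, which had 95% intervals of -3.65 to -3.27 and -3.92 to -3.53.

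Of the 3 partners averaging at least 1 FPKM over all libraries, MYO6 gave the largest difference, in RD-ES. The control libraries had 6.97 and 7.19 FPKM and the eKD2 libraries 12.9 and 8.75 FPKM, both eKD2 libraries above both controls. The log2 fold change was 0.53 (95% interval 0.08 to 0.98, unadjusted p = 0.028, limma adjusted p = 0.34), where 12.3% of all rows had an unadjusted p under 0.05. The higher value is that of RD-ES eKD2 replicate 1, and without this library the log2 fold change was 0.27 (limma adjusted p = 0.59). In SK-N-MC MYO6 was at 10.9 and 9.15 FPKM in control and at 9.25 and 10.4 in eKD2, with a log2 fold change of -0.02 (95% interval -0.48 to 0.43). The difference between the lines was -0.55 (95% interval -1.19 to 0.08, limma adjusted p = 0.43).

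**Figure D2:**
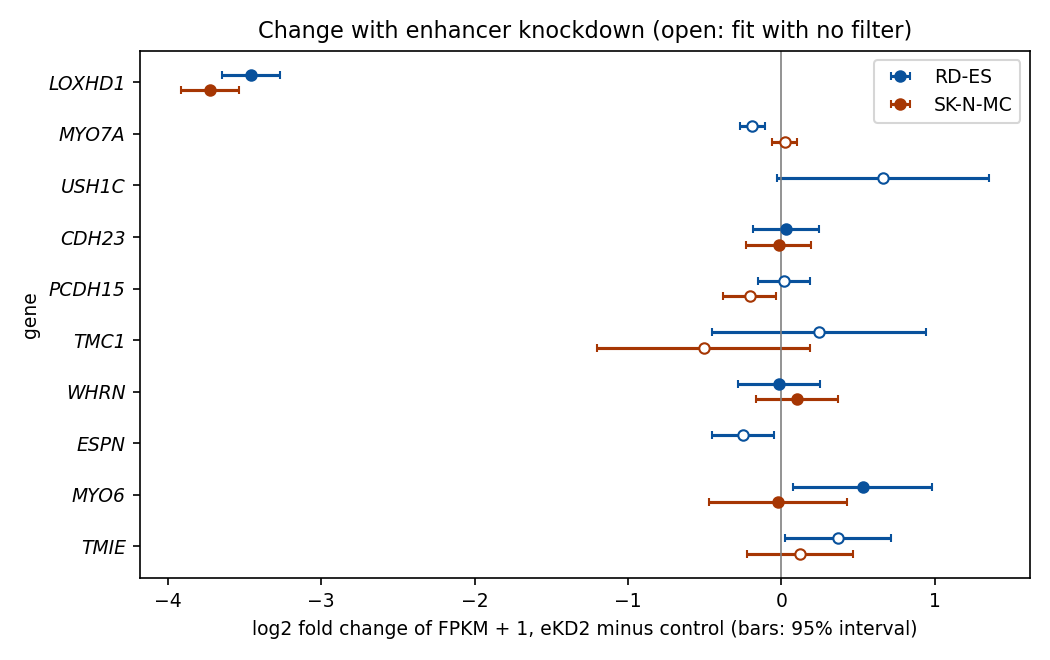
Log2 fold change of FPKM + 1 from control to eKD2 in RD-ES (blue) and SK-N-MC (brown), with 95% intervals from limma. Filled points are genes averaging at least 1 FPKM and open points come from the fit with no filter, where USH1C and ESPN have no SK-N-MC value because every library is listed at 0. LOXHD1 lies near -3.46 and -3.73, and the other genes lie between -0.51 and 0.66. The scale understates changes of the open genes, which average under 1 FPKM. Their distance from LOXHD1 therefore does not compare relative changes.

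The 6 members averaging under 1 FPKM over all libraries did not change at an adjusted p under 0.05 in the fit with no filter. In that fit 0.251% of 31445 rows did for RD-ES and 0.375% for SK-N-MC. Of all 10 members in RD-ES, 3 had both eKD2 libraries below both controls (LOXHD1, MYO7A and ESPN) and 3 had both above (USH1C, MYO6 and TMIE), against 11.2% of rows below and 17% above. MYO7A was at 0.180 and 0.191 FPKM in RD-ES eKD2, a difference of -47.3% from its control mean, with a log2 fold change of -0.19 on the log2(FPKM + 1) scale, which understates changes of low genes (SE 0.0320, unadjusted p = 0.0015, limma adjusted p = 0.17). Behind these values stand about 33.0 and 38.6 reads in control against 9.43 and 19.3 in eKD2. The estimated depth of these libraries was 12.0 and 15.3 M reads in control and 6.99 and 13.5 M in eKD2. Without RD-ES control replicate 2 the limma adjusted p was 0.0496.
ESPN was at 0.290 and 0.165 FPKM in RD-ES eKD2, or 9.59 and 10.5 reads, with a log2 fold change of -0.25 (SE 0.0807, unadjusted p = 0.025, limma adjusted p = 0.40). In this fit 5 of the 10 members had an unadjusted p under 0.05 in RD-ES (LOXHD1, MYO7A, ESPN, MYO6 and TMIE), against 9.63% of all rows. They did not share a direction.

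USH1C, TMC1 and TMIE, like MYO6, had their highest RD-ES value in eKD2 replicate 1. USH1C was at 2.59 and 1.46 FPKM in RD-ES eKD2 (log2 fold change 0.66, 95% interval -0.03 to 1.35, limma adjusted p = 0.55), and its control libraries lay apart (1.38 and 0.483 FPKM). The USH1C value was 0.39 without RD-ES eKD2 replicate 1 (limma adjusted p = 0.85), 0.32 without control replicate 2 and 1.00 without control replicate 1. TMIE was at 0.284 and 0.260 FPKM in control and at 0.901 and 0.424 in eKD2 (log2 fold change 0.37, unadjusted p = 0.039, limma adjusted p = 0.48). Without RD-ES eKD2 replicate 1 the TMIE value was 0.16 (limma adjusted p = 0.66), and without replicate 2 it was 0.58 and passed the threshold (limma adjusted p = 0.019), with 6.02 to 11.1 reads per library in all. TMC1 was at 0.665 and 0.653 FPKM in control and at 1.54 and 0.525 in eKD2, 1 library on each side. Its log2 fold change of 0.25 (95% interval -0.45 to 0.94) turned to -0.12 without RD-ES eKD2 replicate 1.

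**Figure D3:**
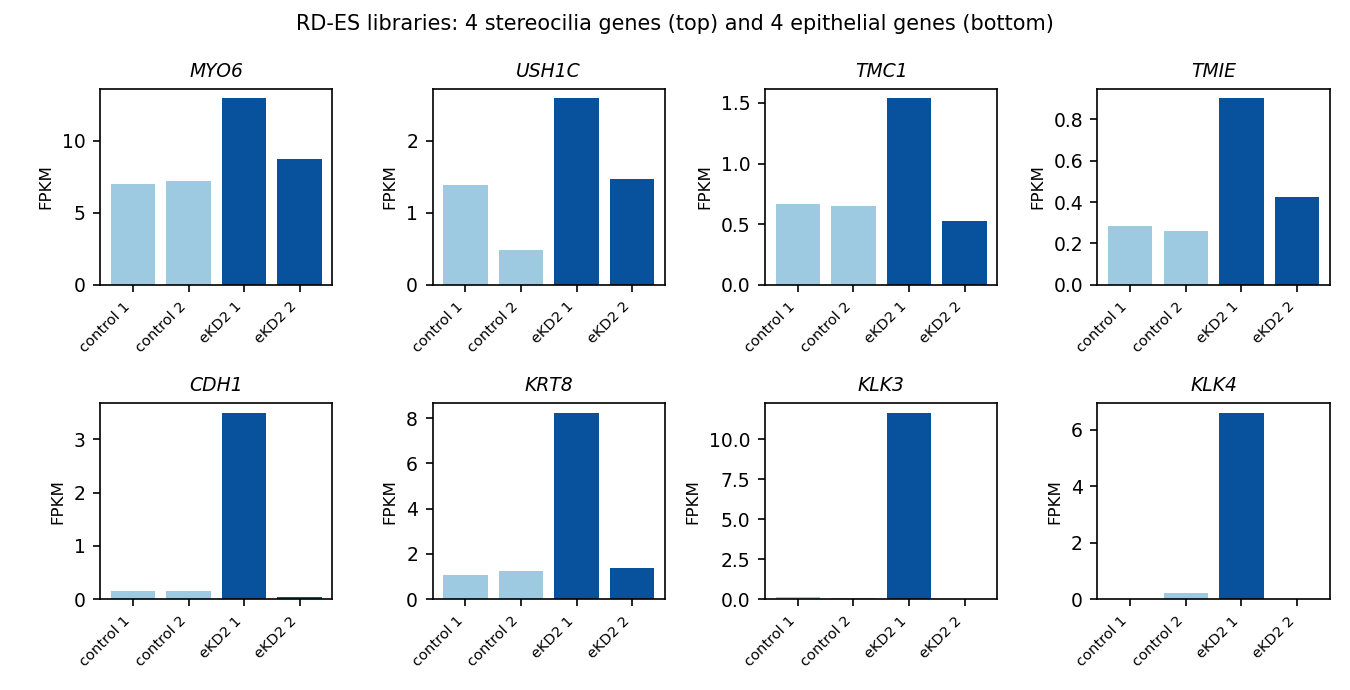
FPKM in the 4 RD-ES libraries for MYO6, USH1C, TMC1 and TMIE (top) and for CDH1, KRT8, KLK3 and KLK4 (bottom), each panel with its own axis from 0. Light bars are control and dark bars eKD2. All 8 genes are highest in eKD2 replicate 1, at 12.9 FPKM for MYO6 and 11.7 FPKM for KLK3.

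In SK-N-MC, 3 members had both eKD2 libraries below both controls (LOXHD1, PCDH15 and TMC1) and 2 had both above (MYO7A and TMIE), against 16.3% and 18.7% of rows. PCDH15 was at 0.136 and 0.310 FPKM in control and at 0.0458 and 0.0654 FPKM in eKD2, or about 35.6 reads in each control library against 9.41 and 14.2 in eKD2. These libraries differ in estimated depth, with 28.0 and 12.3 M reads in control and 21.9 and 23.2 M in eKD2. The mean of PCDH15 changed by -75.0%, and the log2(FPKM + 1) scale understates changes of such low genes. The log2 fold change was -0.21 (95% interval -0.38 to -0.04, unadjusted p = 0.025, limma adjusted p = 0.41), and its size differed with the control library left out. Without SK-N-MC control replicate 1 it was -0.31 and passed the threshold (limma adjusted p = 0.012), without control replicate 2 it was -0.11 (0.17), and over all libraries left out in turn the adjusted p reached 0.61. PCDH15 and LOXHD1 were the 2 members with an unadjusted p under 0.05 in SK-N-MC, against 9.59% of rows.
TMC1 was at 1.40 and 1.47 FPKM in SK-N-MC control and at 0.487 and 0.968 FPKM in eKD2, with a log2 fold change of -0.51 (95% interval -1.20 to 0.19, limma adjusted p = 0.69). TMIE was at 0.143 and 0.0930 FPKM in control and at 0.208 and 0.221 in eKD2 (log2 fold change 0.12, 95% interval -0.23 to 0.46). MYO7A was at 0.0336 and 0.0180 FPKM in eKD2, where 5.51 and 3.13 reads stand against 2.77 and 0.952 in control, and its log2 fold change of 0.02 (95% interval -0.06 to 0.10) turned to -0.01 after quantile normalization.

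With all libraries, no member's change differed between the lines at an adjusted p under 0.05 (limma). At this threshold 0.244% of rows averaging at least 1 FPKM did, and 0.21% of rows in the fit with no filter. For PCDH15 the difference was -0.33 without SK-N-MC control replicate 1 and -0.12 without control replicate 2. The LOXHD1 difference of -0.27 (95% interval -0.54 to 0.0040, limma adjusted p = 0.38) changed sign with a pseudocount of 0.1 or 0.5. Its sign depends on the amount added to FPKM, since the LOXHD1 mean in RD-ES eKD2 was only 1.03 FPKM. With nothing added, the LOXHD1 mean changed by -95.2% in RD-ES and by -93.0% in SK-N-MC. MYO7A gave 0.21 in the fit with no filter (unadjusted p = 0.0048, limma adjusted p = 0.24), where 10.5% of rows had an unadjusted p under 0.05. All comparisons with eKD2 share their control libraries with the comparison of the lines.

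The wider hair cell gene lists show what else of a hair cell these lines express. Of 7 tip link and transduction genes 2 were detected (at least 1 FPKM in both libraries) in RD-ES control and 3 in SK-N-MC control. Besides CDH23, CIB2, a calcium-binding subunit of the channel complex, was at 4.38 and 5.05 FPKM in RD-ES control and at 1.38 and 1.31 in SK-N-MC control. Of the 3 genes of the Usher type 1 anchor none was detected in the control cells of either line (USH1C passed 1 FPKM in both RD-ES eKD2 libraries), and USH1G, the scaffold SANS, was listed at 0 in all 8 libraries. ADGRV1, the large adhesion receptor of the ankle link, was at 4.20 and 2.87 FPKM in RD-ES control and at 1.51 and 2.00 in SK-N-MC control, so it was detected together with WHRN, its scaffold, while PDZD7 was under 0.24 FPKM in every library.
Some genes with wide roles in actin or cell cortex were high. Of 7 genes of the stereocilium tip 5 were detected in RD-ES control and 4 in SK-N-MC control. They were led by GPSM2 (spindle orientation), EPS8 (actin capping) and GNAI3 (a G protein subunit), with means of 29.9, 13.3 and 7.08 FPKM. Of 10 actin genes 7 and 6 were detected, led by CAPZB, PLS3 and FSCN1 with means of 206, 94.5 and 93.5 FPKM over the 8 libraries. Of 9 genes of the base and membrane 4 were detected in each line, led by RDX (radixin, mean 210 FPKM) and MYO1C (mean 29.5 FPKM). In each line 4 others averaged under 0.1 FPKM in control, with STRC and GRXCR1 listed at 0 in all libraries. PTPRQ of this list was at 1.84 and 0.634 FPKM in RD-ES control and at 0.406 and 0 in SK-N-MC control. MYO3A of the tip list (1.40 and 1.57 FPKM) and ESPNL of the actin list (2.41 and 1.10 FPKM) were detected in RD-ES control. In SK-N-MC both were under 1 FPKM. For comparison, 59.0% of 19810 protein-coding rows were detected in RD-ES control and also in SK-N-MC control.

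Of 6 hair cell transcription factors 5 averaged under 0.1 FPKM in RD-ES control and 3 in SK-N-MC control. Among protein-coding rows 28.5% and 29.5% did. None of the 6 was detected in RD-ES control, and 1 was in SK-N-MC control. This was GFI1, which blood cells also use, at 4.37 and 2.83 FPKM in SK-N-MC control. ATOH1, the factor that starts hair cell fate, was at 0 and 0.0300 FPKM in RD-ES control and at 0.411 and 0.412 FPKM in SK-N-MC control, and INSM1 was at most 0.0523 FPKM in RD-ES and 0.50 FPKM in SK-N-MC. Of the genes of the hair cell body, CHRNA10, a nicotinic receptor subunit, was at 1.30 and 1.46 FPKM in RD-ES control and at 0.669 and 0.113 FPKM in SK-N-MC control. OTOF, needed for transmitter release, was under 1 FPKM throughout. Of 8 markers of other cell types 1 was detected in RD-ES control and 2 in SK-N-MC control, against 59.0% of protein-coding rows in each. PTPRC (the leukocyte antigen CD45) was at 19.2 to 22.6 FPKM in SK-N-MC and at most 0.0173 FPKM in RD-ES. EPCAM was at 4.03 and 4.54 FPKM in SK-N-MC control, and CD68 at 1.16 and 1.85 FPKM in RD-ES control. CD3E and MYOG were at 0, and PECAM1 was not analysed here.

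**Figure D4:**
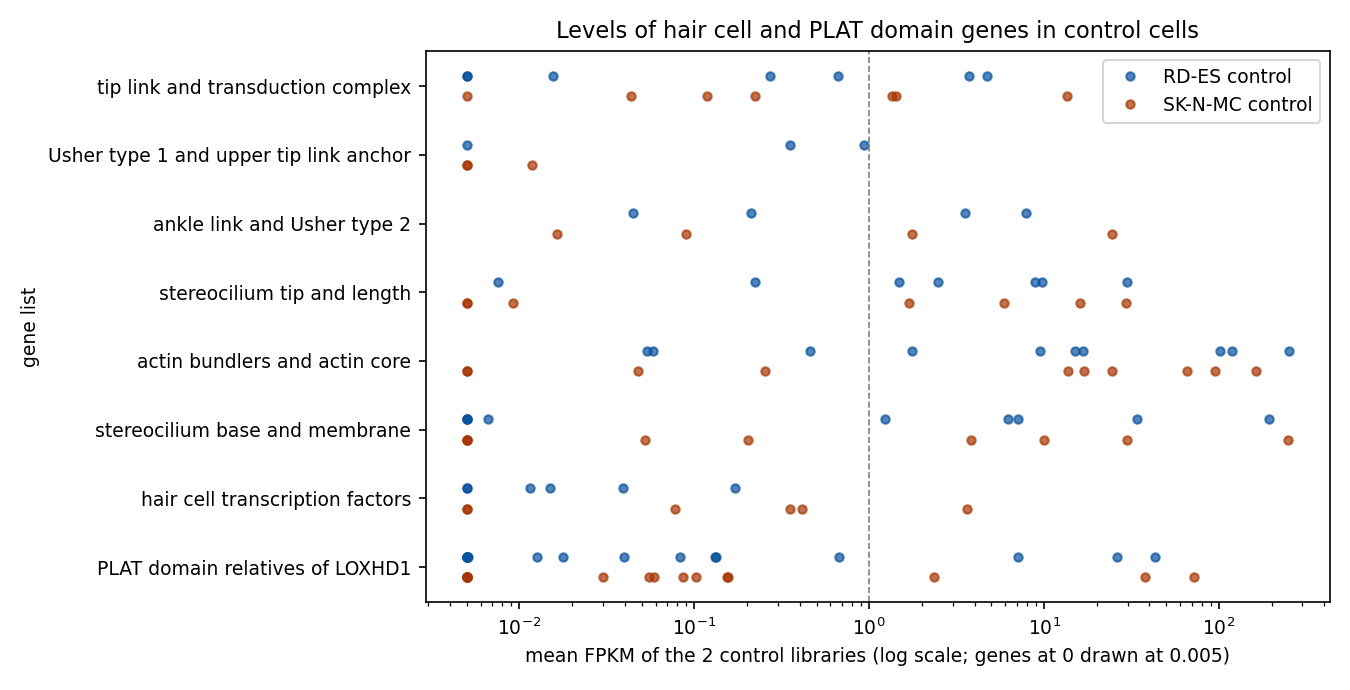
Mean FPKM of the 2 control libraries (log scale) for every gene of 8 lists, RD-ES in blue and SK-N-MC in brown, with genes at 0 drawn at 0.005 and a dashed line at 1 FPKM. The actin, tip and base lists reach above 100 FPKM or near 30 FPKM, and the transcription factor list has 1 gene above 1 FPKM, in SK-N-MC.

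Changes with eKD2 are given for 6 hair cell lists, those of the tip link and transduction complex, the ankle link, the stereocilium tip, the actin genes, the base and membrane, and the transcription factors. Of their 20 genes tested 0 changed at an adjusted p under 0.05 (limma) in either line, against 0.343% of all rows for RD-ES and 0.323% for SK-N-MC. At an unadjusted p under 0.05 there were 2 in RD-ES (MYO6 and GPSM2, against 12.3% of all rows) and 1 in SK-N-MC (GNAI3, against 13%), and without RD-ES eKD2 replicate 1 there were 0 in RD-ES, against 10.7% of all rows. Over these 6 lists, the median log2 fold change lay between -0.05 and 0.22 in RD-ES (0.03 over all rows tested) and between -0.07 and 0.21 in SK-N-MC (-0.0049 over all rows). GPSM2 gave a log2 fold change of 0.20 in RD-ES (limma adjusted p = 0.38, and 0.14 without RD-ES eKD2 replicate 1) and GNAI3 gave -0.23 in SK-N-MC (limma adjusted p = 0.37). Of 16 relatives of LOXHD1 with a PLAT domain 3 were detected in both lines. These were the Rab regulators DENND5A and DENND5B and the polycystin PKD1, with means of 55.1, 5.03 and 34.0 FPKM, and none changed at the adjusted threshold (DENND5A in RD-ES -0.21, limma adjusted p = 0.36). The lipoxygenases ALOX5 and ALOX12 were listed at 0 in all libraries.
Of the 10 Ewing sarcoma markers, among them CCND1, CD99 and RBM11 as the highest, none changed at the adjusted threshold. STEAP1, a metalloreductase (-0.20 for RD-ES and -0.30 for SK-N-MC, with limma adjusted p = 0.31 and 0.17), and EWSR1, the gene that is joined to FLI1 in Ewing sarcoma (-0.28 and -0.31, limma adjusted p = 0.33 and 0.28), had an unadjusted p under 0.05 in both lines, and no other marker did in SK-N-MC. In RD-ES 2 markers were higher at that threshold, RBM11 (0.27, limma adjusted p = 0.19) and PRKCB (0.26, limma adjusted p = 0.40), so 4 of 10 passed it there against 12.3% of all rows and 2 of 10 in SK-N-MC against 13%. Without RD-ES eKD2 replicate 1 there were 2 in RD-ES, 1 in each direction, with RBM11 at 0.23, PRKCB at 0.19 and EWSR1 at -0.15. The median of the 10 markers was -0.14 in each line, and -0.05 in RD-ES without that library. Of the 12 epithelial markers 4 were tested, with a median of -0.22 in SK-N-MC. Of these 1 changed at the adjusted threshold, against 0.323% of all rows. This was ESRP1, an epithelial splicing factor, which rose in SK-N-MC from 31.6 and 29.5 FPKM to 70.1 and 72.4 FPKM (limma adjusted p = 0.0094). KRT18, a keratin, went the other way, from 50.4 and 54.4 FPKM to 36.8 and 35.2 FPKM (unadjusted p = 5.5e-04, limma adjusted p = 0.093).

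Genes near the silenced repeat were examined because KRAB can act over a distance. Of 43 rows with a symbol of their own that start within 1 Mb of LOXHD1, 12 averaged at least 1 FPKM. At an adjusted p under 0.05 (limma) 0 changed in either line, and at an unadjusted p under 0.05 there were 2 in RD-ES (ST8SIA5 and HDHD2) and 2 in SK-N-MC (PIAS2 and HAUS1), against 12.3% and 13% of all rows. They were, from the nearest start outward, ST8SIA5, RNF165, KATNAL2, PIAS2, C18orf25, HDHD2, HAUS1, ATP5A1, AC012254.2, IER3IP1, PSTPIP2 and EPG5, and their median log2 fold change was 0.04 for RD-ES and -0.13 for SK-N-MC. Without RD-ES eKD2 replicate 1 there was 1 in RD-ES (HDHD2), and the RD-ES median was -0.06.
ST8SIA5, a sialyltransferase and the nearest of them, was at 0.913 and 0.510 FPKM in RD-ES control and at 1.67 and 1.37 in eKD2 (log2 fold change 0.57, limma adjusted p = 0.40, and 0.48 without RD-ES eKD2 replicate 1). The SK-N-MC libraries of ST8SIA5 were at 1.62 and 2.54 FPKM in control and at 1.26 and 1.42 in eKD2 (-0.38, limma adjusted p = 0.53). HAUS1, a subunit of the augmin complex of the spindle, was at 116 and 143 FPKM in SK-N-MC control and at 79.0 and 83.8 in eKD2. This was the largest difference among the 12 (log2 fold change -0.65, unadjusted p = 9.4e-04, limma adjusted p = 0.12). PIAS2, a SUMO ligase, gave -0.42 in the SK-N-MC cells (limma adjusted p = 0.21), and HDHD2 gave 0.38 in RD-ES (limma adjusted p = 0.23, and 0.28 without RD-ES eKD2 replicate 1). Between the lines, 11 of the 12 genes were higher in SK-N-MC control than in RD-ES control at an adjusted p under 0.05 (limma), with a median of 0.72, against 31.4% of all rows tested.

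**Figure D5:**
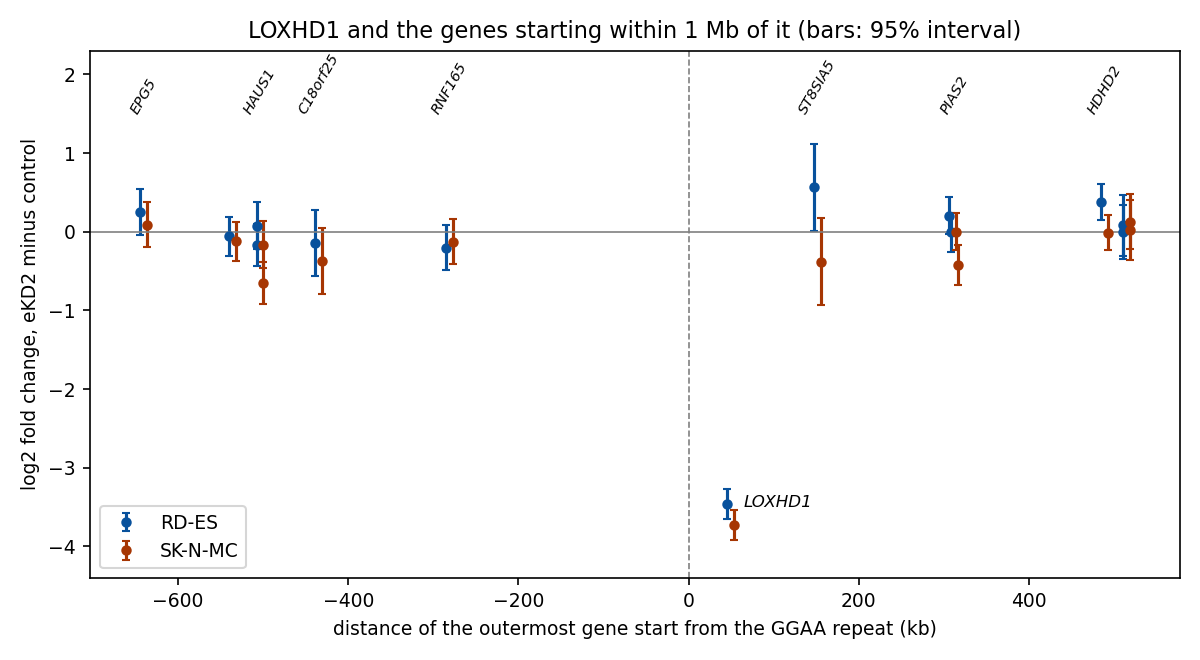
Log2 fold change from control to eKD2 of LOXHD1 and of the 12 expressed genes near it, against the distance of each outermost gene start from the GGAA repeat in kb, RD-ES in blue and SK-N-MC in brown, with 95% intervals from limma. The 12 genes lie between -0.65 and 0.57, and LOXHD1 lies below -3. LOXHD1 is placed by its outermost annotated start, not by the alternative start that the study reports for Ewing sarcoma cells.

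The 5 genes whose log2(FPKM + 1) followed LOXHD1 most closely over the 8 libraries were SLBP, STEAP1, SLC25A32, USP31 and COMMD9, with Pearson r of 0.975, 0.973, 0.963, 0.946 and 0.946. The 8 libraries are 4 groups of 2, so r follows the group means, and no test was made. SLBP, which binds histone mRNA, moved far less than LOXHD1 in FPKM, from 76.1 and 75.3 to 70.2 and 66.0 in RD-ES and from 84.0 and 84.0 to 74.0 and 72.8 in SK-N-MC. None of the 5 is a member. Among the members, r with LOXHD1 was 0.745 for PCDH15, 0.606 for CDH23, 0.584 for WHRN and 0.371 for TMC1, and it was negative for MYO6 (-0.174), ESPN (-0.338), MYO7A (-0.370), USH1C (-0.721) and TMIE (-0.815). CDH23 and WHRN were higher in SK-N-MC than in RD-ES, and their control and eKD2 libraries overlapped within each line.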

How the data were processed

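RNA-seq of 8 libraries (2 per group) was used. Gene FPKM were deposited by the authors, who had mapped 75-base single-end reads with STAR (GRCh37, hg19) and used cuffnorm, and these FPKM, not counts, were analysed. Tests used limma 3.58 in R 4.3 (lmFit, eBayes with trend) on log2(FPKM + 1) over all 4 groups, for rows with a mean of at least 1 FPKM, with Benjamini-Hochberg adjustment over all rows. Members below that mean were read from the same fit with no filter. The members and lists were chosen with earlier results of these data known. Named were all members, the 3 highest genes of each list, list genes with an adjusted p under 0.05 or an unadjusted p under 0.05 in both lines, expressed genes within 1 Mb of LOXHD1 and the 5 genes most like LOXHD1. Other names were added after values were seen, and 1 gene that the rule names, the summary of the list that holds it (hair cell body genes) and the sequence of the LOXHD1 repeat are not reported here. The 4 groups share 1 estimate of the spread, and p-values measure the spread between these libraries. The study calls the libraries of a group biological duplicates, while the labels do not tie them to separate cultures. Depth and reads per gene were estimated from FPKM steps and the longest transcript, and cover no other error. Gene positions came from GENCODE 44 mapped to GRCh37 (98.0% of identifiers matched). Alternatives varied pseudocount, filter, scaling, trend, replicate block and libraries, and listed genes without RD-ES eKD2 replicate 1 were added after the data were seen. The authors' differential expression test on counts was not used here.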

Additional observations from a re-analysis of the deposited data

How the results depend on the processing

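Depth limits the low members most, and 2 libraries per group leave wide intervals. Over the alternatives, 555 member values kept their direction and side of the threshold, 12 passed it anew, 7 no longer passed and 16 changed sign. LOXHD1 in RD-ES gave -3.46 (limma adjusted p = 0.059) with RD-ES fitted alone, where the spread rests on 4 libraries. Signs turned for CDH23 in RD-ES (-0.030 after median scaling, -0.062 after quantile normalization), CDH23 in the difference between lines (0.021 and 0.057), MYO7A in SK-N-MC (-0.013 after quantile normalization) and LOXHD1 in the difference between lines (0.42 with a pseudocount of 0.1 and 0.055 with 0.5). The LOXHD1 sign depended on the amount added to FPKM, and the cause of the other turns was not tested. Rows past an adjusted p of 0.05 were 52 in RD-ES (79 with no filter, 1 with the line alone), 49 in SK-N-MC (118 with no filter, 13 with the line alone, 32 without genes under 200 bases) and 37 for the difference between lines (66 with no filter, 17 without genes under 200 bases). At an unadjusted p under 0.05 no filter gave 3027, 3016 and 3287 rows, against 1863, 1973 and 2055. The comparison of the lines and the difference between them could not be fitted with 1 line alone. Replicate numbers did not pair the samples (r of replicate differences 0.056 for RD-ES and 0.027 for SK-N-MC), and with a replicate block the adjusted counts were 11 in RD-ES, 5 in SK-N-MC and 7 for the difference between lines, while the USH1C difference between the control groups passed the threshold (limma adjusted p = 0.013). Median scaling moved the median log2 difference of all rows between the control groups by -0.11. The share of rows with an unadjusted p under 0.05 that were higher in RD-ES eKD2 was 69.1% as deposited, 41.2% after median scaling and 53.7% after quantile normalization.

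Without 1 library at a time, the ranges were 27 to 71 adjusted rows in RD-ES (27 without either SK-N-MC control library, 34 without either SK-N-MC eKD2 library), 12 to 76 in SK-N-MC (12 without either RD-ES control library, 22 without either RD-ES eKD2 library, 76 without SK-N-MC eKD2 replicate 1) and 54 to 81 for the difference between lines (54 without RD-ES control replicate 2, and at least 61 without any other library), and 1209 (without SK-N-MC control replicate 2) to 2220 rows at an unadjusted p under 0.05 in SK-N-MC. Among members they were -0.0024 to 0.058 (CDH23), -0.12 to 0.61 (TMC1), 0 to 0.030 (PCDH15) and -0.066 to 0.035 (WHRN) in RD-ES, -0.076 to 0.037 (CDH23), -0.010 to 0.21 (WHRN) and -0.14 to 0.093 (MYO6) in SK-N-MC, and -0.10 to 0.0095 for CDH23 in the difference between lines.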

Other observations

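TPRN (taperin), a protein of the stereocilium base and 1 of the listed genes of that region, was at 31.7 FPKM in SK-N-MC eKD2 replicate 2 and at 3.61 to 6.43 FPKM in the other 7 libraries. It was singled out after its values were seen, and its log2 fold change in SK-N-MC was 1.35 with a 95% interval of -0.64 to 3.35.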
